A study of Mus musculus with 6 samples.

Results

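The 10 genes described here form the core of the mammalian circadian clock and its best known output: the activators Clock and Arntl, the repressors Per1, Per2, Per3, Cry1 and Cry2, the nuclear receptors Nr1d1 and Nr1d2, and the output factor Dbp. They were chosen by symbol, 10 of 45470 genes with a usable name, and all 10 entered the test of 15398 genes. Their RNA was measured in homogenized prefrontal cortex of 8-week-old mice (postnatal week 8). There were 3 libraries from wild type mice and 3 from mice heterozygous for a duplication of the segment that matches human 16p11.2, a gain associated with autism and with schizophrenia in carriers. The line began on a hybrid of C57BL/6N with 129Sv, was then crossed to C57BL/6 over 10 generations, and was kept on C57BL/6. Neither the time of day at which tissue was taken nor the sex of the mice is stated in the labels, and no source says that every library came from its own animal, so p-values refer only to the spread among these samples.

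The clock is a transcriptional feedback loop that runs in nearly every cell. CLOCK and ARNTL (also called BMAL1) bind E-boxes as a pair and switch on the Per and Cry genes, the Nr1d genes and Dbp, and PER and CRY proteins then return to the nucleus and block them. The NR1D proteins (REV-ERB alpha and beta) close a second loop by repressing Arntl and Cry1 through sites shared with the ROR receptors, while DBP acts through D-boxes. In mouse tissues Nr1d1, Dbp and the Per genes peak in turn from the middle of the light phase into the early night, and Arntl peaks close to the opposite time. In cortex, Per1 is also induced within minutes by neuronal activity through cAMP response elements (CRE).

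Promoter sequence was searched for the motifs of these factors. The stretches below are RefSeq sequence of build GRCm38.p6, the mm10 assembly, taken from the 250 bases before an annotated start and trimmed where an annotated exon begins. They are shown for the paralogs Per1 and Per3, the paralogs Nr1d1 and Nr1d2, and Cry1, to let paralogs be compared and to show windows that hold these motifs. Capitals mark, on either strand, an E-box CACGTG, its variant CACGTT (called E-prime box), a D-box TTATGTAA or its variant TTATGCAA, a CRE core TGACGT and the nuclear receptor core AGGTCA.
Per1, first start, chr11:69098699-69098947, plus strand: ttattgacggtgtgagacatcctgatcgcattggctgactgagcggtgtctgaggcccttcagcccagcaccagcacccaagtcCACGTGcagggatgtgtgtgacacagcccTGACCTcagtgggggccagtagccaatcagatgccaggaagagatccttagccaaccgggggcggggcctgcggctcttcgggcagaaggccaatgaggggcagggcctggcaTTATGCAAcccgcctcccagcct
Per1, second start, chr11:69099902-69100151, plus strand: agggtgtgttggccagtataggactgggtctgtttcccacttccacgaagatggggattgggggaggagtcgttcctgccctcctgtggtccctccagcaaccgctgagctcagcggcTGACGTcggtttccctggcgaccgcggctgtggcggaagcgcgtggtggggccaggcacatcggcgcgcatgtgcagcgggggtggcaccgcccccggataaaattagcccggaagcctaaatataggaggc
Per3, chr4:151044666-151044915, minus strand: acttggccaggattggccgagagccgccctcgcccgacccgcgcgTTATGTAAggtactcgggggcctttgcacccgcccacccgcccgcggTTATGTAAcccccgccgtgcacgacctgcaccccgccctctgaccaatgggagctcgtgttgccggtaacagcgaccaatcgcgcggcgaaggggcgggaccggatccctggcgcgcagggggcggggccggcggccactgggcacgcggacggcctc
Nr1d1, chr11:98775378-98775627, minus strand: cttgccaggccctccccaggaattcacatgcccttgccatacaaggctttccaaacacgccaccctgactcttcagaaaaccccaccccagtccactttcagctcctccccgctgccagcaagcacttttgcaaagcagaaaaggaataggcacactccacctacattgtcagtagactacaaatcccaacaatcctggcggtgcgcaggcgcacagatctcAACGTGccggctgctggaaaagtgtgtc
Nr1d2, chr14:18239128-18239356, minus strand: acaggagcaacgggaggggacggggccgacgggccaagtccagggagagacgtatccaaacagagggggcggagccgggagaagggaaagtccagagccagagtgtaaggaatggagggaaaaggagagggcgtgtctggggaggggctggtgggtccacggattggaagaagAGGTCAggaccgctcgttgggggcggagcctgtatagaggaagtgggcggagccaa
Cry1, chr10:85185065-85185304, minus strand: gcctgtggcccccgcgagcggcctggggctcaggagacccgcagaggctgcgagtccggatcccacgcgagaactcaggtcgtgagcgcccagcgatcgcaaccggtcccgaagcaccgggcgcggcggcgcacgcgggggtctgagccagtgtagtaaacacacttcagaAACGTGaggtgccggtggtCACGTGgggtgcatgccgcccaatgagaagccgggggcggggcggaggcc

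Of the 9 members matched in the RefSeq table (all but Per2), Per1 alone had 4 of these 6 motifs: an E-box 166 bases, a nuclear receptor core 137 bases and a variant D-box 24 bases before its first start, and a CRE core 132 bases before its second. Per3 carried no E-box in this window and held the D-box TTATGTAA at 205 and again at 158 bases before its start. Nr1d1 had an E-prime box 28 bases before its start, and its paralog Nr1d2 a nuclear receptor core at 77 bases. Cry1 had an E-box at 60 and an E-prime box at 79 bases, and Cry2 an E-prime box at 166 bases. Of 32851 promoter windows of the same length in the RefSeq table, 6.02% held CACGTG, 3.85% CACGTT, 0.819% TTATGTAA, 0.694% TTATGCAA, 6.47% TGACGT and 14.0% AGGTCA. Over the 13 windows of the 9 members, 2, 3, 1, 1, 1 and 3 windows held them in the same order. Clock had a nuclear receptor core 119 bases before an annotated start. The windows of Dbp and Arntl held none of the 6. These are matches of letters and not measured binding sites, and the motifs were chosen with the sequences in view. Members also differed in the number of starts searched, with 2 for Per1. The number of motifs per gene is therefore not an even comparison, and by itself it does not set Per1 apart. Matches of different motifs did not overlap in these windows.

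Total gene counts were 12988457 to 21872271 per library. As deposited, 65.1% of names stood against the counts of another line, and all values here follow a shift of the names back. For 5 members the shift mattered: in the 3 wild type libraries together Per3 had 0 counts as deposited and 1512 after the shift, Dbp 16 and 1328, Arntl 36 and 2149, Clock 1062 and 8344, and Cry2 10179 and 4234. The tissue label was checked with marker lists. Cortical neuron markers (Slc17a7, Snap25 and others) summed to 4130 to 4430 CPM (counts scaled to library size) in wild type and 4240 to 4570 in duplication libraries. Of 9 markers of the hypothalamus and of its pacemaker, the suprachiasmatic nucleus, only Vip, which cortical interneurons also make, passed the filter on low counts, and Six6 had 0 counts in all 6 libraries. Meningeal markers summed to 29.7 to 41.0 CPM in wild type and 43.3 to 86.7 in duplication libraries. Xist was at 0 CPM in replicate 1 of both groups and at 141 to 259 CPM in the other 4 libraries.

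The clock genes did not shift in 1 direction. All duplication libraries lay below all wild type libraries for Per1 and above them for Dbp and Nr1d2, the mean of Nr1d1 was lower with overlapping groups, and Clock, Arntl, Cry1, Cry2 and Per3 had log2 fold changes between -0.06 and 0.03. None of the 10 passed the test over all genes (edgeR quasi-likelihood test, Benjamini-Hochberg adjusted p under 0.05): 0 were higher and 0 lower, against a background of 0% of tested genes in each direction. At an unadjusted p under 0.05, 2 were higher (Dbp and Nr1d2; background 7.05%) and 1 lower (Per1; 12.2%). The 3 values of each group did not overlap for the same 3 genes, 2 higher (background 11.7%) and 1 lower (10.5%). DESeq2 called 0 higher and 1 lower, Per1, beside 46 higher and 239 lower of all 15398 tested genes. With limma-voom 0 members were called, and 0 of all tested genes. The median log2 fold change of the 10 members was -0.03, beside 0.005 over all tested genes. In a tissue homogenate fewer cells that express a gene and less RNA per cell cannot be told apart.

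**Figure D1:**
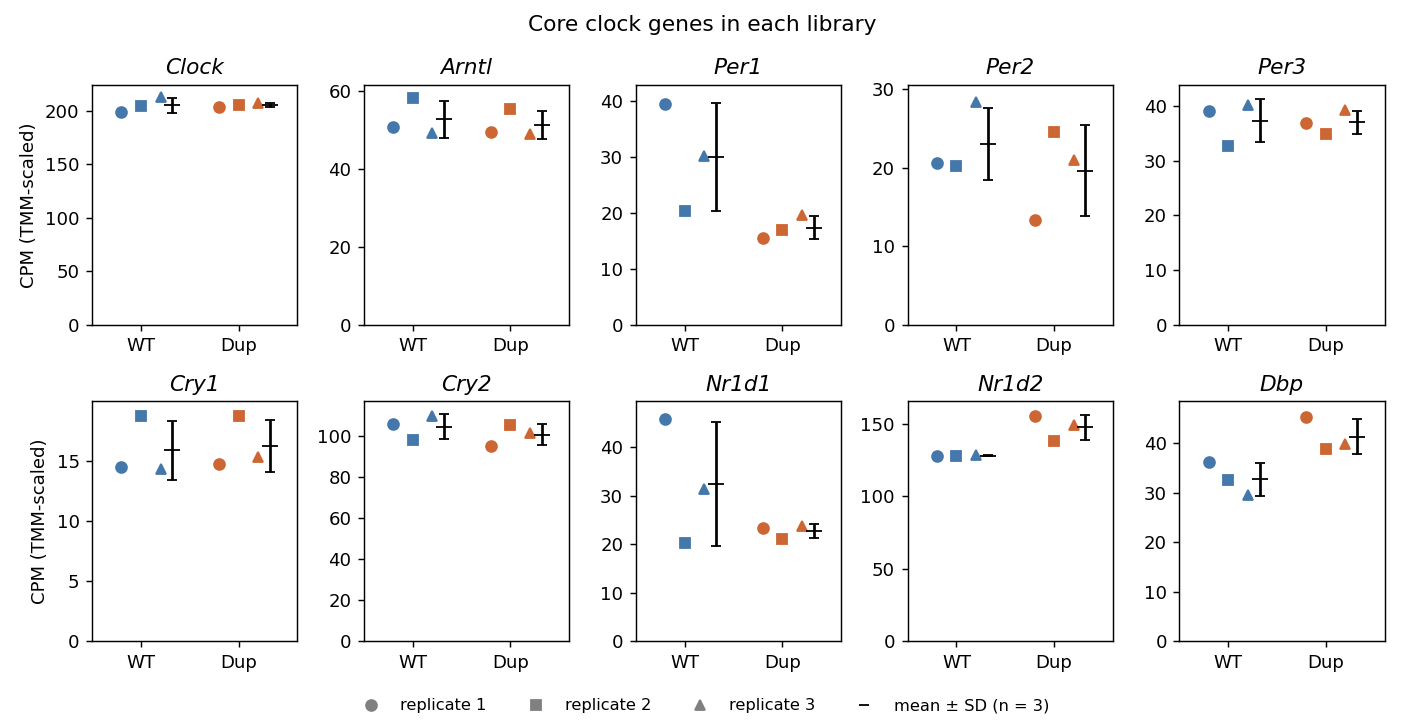
Level of each clock gene in each library, in CPM on a linear axis from 0, with blue symbols for wild type (WT), orange for duplication (Dup), a symbol shape for each replicate number and black bars for mean ± SD (n = 3). Per1 is lower in every Dup library than in every WT library, Dbp and Nr1d2 are higher in every Dup library, and Clock stays between 199 and 213 CPM in all 6.

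Neither activator differed between the groups beyond its spread. Clock, the steadiest of the 10 genes and the histone acetyltransferase subunit of the pair (chromosome 5, 76209868 to 76304792, minus strand), measured 198.8, 204.2 and 212.8 CPM across wild type replicates 1 to 3, and 203.8, 205.6 and 207.3 CPM across duplication replicates 1 to 3. The groups overlapped, and the log2 fold change was 0.002 ± 0.055 (SE), with a 95% interval of -0.12 to 0.13. Over the 6 libraries its log2 CPM spanned 0.10, beside a median span of 0.40 over all tested genes. Arntl, its obligate partner (chromosome 7, 113207465 to 113314126, plus strand), was at 50.9, 58.2 and 49.2 CPM in wild type and 49.5, 55.5 and 49.0 CPM in duplication libraries. These overlapped as well, with the highest value of each group in its replicate 2, and the log2 fold change was -0.04 ± 0.09 (95% interval -0.23 to 0.15). Arntl lies on the chromosome that carries the duplication, 13.4 Mb below Slx1b, the first gene of the duplicated segment. The partner gene Npas2, which can stand in for Clock in forebrain, was at 38.6, 28.9 and 38.2 CPM in wild type and 27.5, 33.0 and 30.3 CPM in duplication libraries, a log2 fold change of -0.22 ± 0.12 with overlapping groups.

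The 3 Period genes, whose proteins repress the activator pair, had fold changes from -0.79 to -0.01 on the log2 scale. Per1 (chromosome 11, 69095217 to 69109960, plus strand) measured 39.5, 20.2 and 30.2 CPM across wild type replicates 1 to 3, and 15.5, 16.9 and 19.7 CPM across duplication replicates 1 to 3. All 3 duplication libraries lay below all 3 wild type libraries, but wild type replicate 2 came within 1 CPM of duplication replicate 3. The log2 fold change was -0.79 ± 0.21, a fold of 0.579 with an unadjusted p of 0.00448 and an adjusted p of 0.174 (edgeR). It was called with DESeq2 (adjusted p = 0.0118, log2 fold change -0.79) and, in edgeR, when low counts were not filtered (0.00224, -0.78), when wild type replicate 2 was dropped (0.0022, -1.01) and when both libraries numbered 2 were dropped (0.0119, -0.99). Leaving out any other library gave adjusted p of 0.26 to 0.49 (edgeR), and log2 fold changes of -0.89 to -0.54.

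Per2 (chromosome 1, 91415982 to 91459324, minus strand), the Period gene whose loss disturbs behavioural rhythm most, was at 20.6, 20.2 and 28.4 CPM in wild type and 13.3, 24.6 and 21.0 CPM in duplication libraries. The groups overlapped, and the lowest and highest of the 6 values came from duplication replicate 1 and wild type replicate 3. Its log2 fold change of -0.25 ± 0.22 (95% interval -0.74 to 0.24) became -0.02 without duplication replicate 1 and -0.07 without wild type replicate 3. Per3 (chromosome 4, 151003652 to 151044665, minus strand), which is dispensable for the core rhythm, was at 39.1, 32.8 and 40.2 CPM in wild type and 36.8, 35.0 and 39.3 CPM in duplication libraries. Per3 lies whole within Camta1, on the same strand, with 0 exon bases in common. Its groups overlapped, the lowest value of each being replicate 2, and its log2 fold change was -0.01 ± 0.09 (95% interval -0.22 to 0.20). The Per1 interval, -1.26 to -0.31, did not overlap that of Per3, and both overlapped that of Per2. The difference between these genes' fold changes was not tested.

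The Cryptochrome genes encode the main repressors of the activator pair. Cry1 (chromosome 10, 85131700 to 85185064, minus strand) was at 14.5, 18.7 and 14.4 CPM in wild type and 14.7, 18.7 and 15.3 CPM in duplication libraries. Replicate 2 stood above the other 2 libraries by 0.37 on the log2 scale in wild type and by 0.32 in duplication mice, so the groups overlapped almost completely, and the log2 fold change was 0.03 ± 0.14 (95% interval -0.28 to 0.33). Cry2 (chromosome 2, 92403646 to 92434043, minus strand) was at 105.7, 98.0 and 109.5 CPM in wild type and 95.1, 105.4 and 101.1 CPM in duplication libraries, again overlapping, with a log2 fold change of -0.06 ± 0.07 (95% interval -0.21 to 0.10). Cry2 shares 295 exon bases with a transcript on the opposite strand, D930015M05Rik, and no source used here says whether counting took account of strand.

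The paralogs Nr1d1 and Nr1d2, both heme-binding repressors of Arntl, had log2 fold changes of opposite sign. Nr1d1 (chromosome 11, 98767932 to 98775333, minus strand) measured 45.8, 20.3 and 31.4 CPM across wild type replicates 1 to 3, and 23.4, 21.2 and 23.8 CPM across duplication replicates 1 to 3. Wild type replicates 1 and 3 lay above all duplication libraries and wild type replicate 2 below them, so the groups overlapped. The log2 fold change was -0.51 ± 0.24 (edgeR unadjusted p = 0.0605, adjusted p = 0.278). With wild type replicate 2 dropped it was -0.76 and called (adjusted p = 0.0084), as it was with both libraries numbered 2 dropped (-0.70, adjusted p = 0.0352). With wild type replicate 1 dropped it was -0.18 (adjusted p = 0.654). Nr1d1 shares 263 exon bases with Thra, the thyroid hormone receptor alpha gene on the opposite strand, and its value is uncertain to the extent that reads there were counted without strand.

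Nr1d2 (chromosome 14, 18204054 to 18239127, minus strand) was at 127.8, 127.5 and 128.4 CPM in wild type and 154.9, 138.1 and 149.0 CPM in duplication libraries. The wild type libraries were within 1 CPM of each other and all duplication libraries stood above them. The log2 fold change of 0.20 ± 0.06, a fold of 1.15, had an unadjusted p of 0.00916 and did not pass over all genes (edgeR adjusted p = 0.175). It lay between 0.14 and 0.25 in 18 alternative settings with names shifted, and was called in 0 of them. Within a library, where scaling cancels, the ratio of Nr1d1 to Nr1d2 counts was 0.358, 0.159 and 0.244 in wild type and 0.151, 0.153 and 0.160 in duplication libraries. The duplication libraries were nearly equal in this ratio, and wild type replicate 2 had the value of the duplication group. Wild type replicate 2 also lay toward the duplication group over all tested genes. On the first principal component of their log2 CPM (45.5% of variance), wild type replicates 1 to 3 were at -27.2, 4 and -26.7. Duplication replicates 1 to 3 were at 24.8, 17.8 and 7.2.

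Dbp, a PAR bZIP activator and one of the strongest rhythmic outputs of the clock (chromosome 7, 45705088 to 45710203, plus strand), was at 36.2, 32.6 and 29.5 CPM in wild type and 45.4, 38.8 and 40.0 CPM in duplication libraries. Every duplication library was above every wild type library. The log2 fold change was 0.34 ± 0.10, a fold of 1.27 (edgeR unadjusted p = 0.00612, adjusted p = 0.174), and it was called only without a filter on low counts (0.35, adjusted p = 0.032) among 18 alternative settings with names shifted, over which it ran from 0.22 to 0.42. Dbp lies 81.0 Mb below Slx1b on chromosome 7, outside the duplicated segment, and shares 539 exon bases with Sphk2 on the opposite strand. Meningeal markers, like Dbp and Nr1d2, were higher in every duplication library than in every wild type library. On the centred log2 scale they were at -0.43, -0.61 and -0.19 in wild type and 0.95, 0.29 and 0 in duplication libraries. With their level as a covariate the log2 fold changes were 0.22 for Dbp and 0.14 for Nr1d2 (edgeR adjusted p = 0.869 for each). Since the meningeal level separated the groups, that fit cannot tell it apart from genotype.

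**Figure D2:**
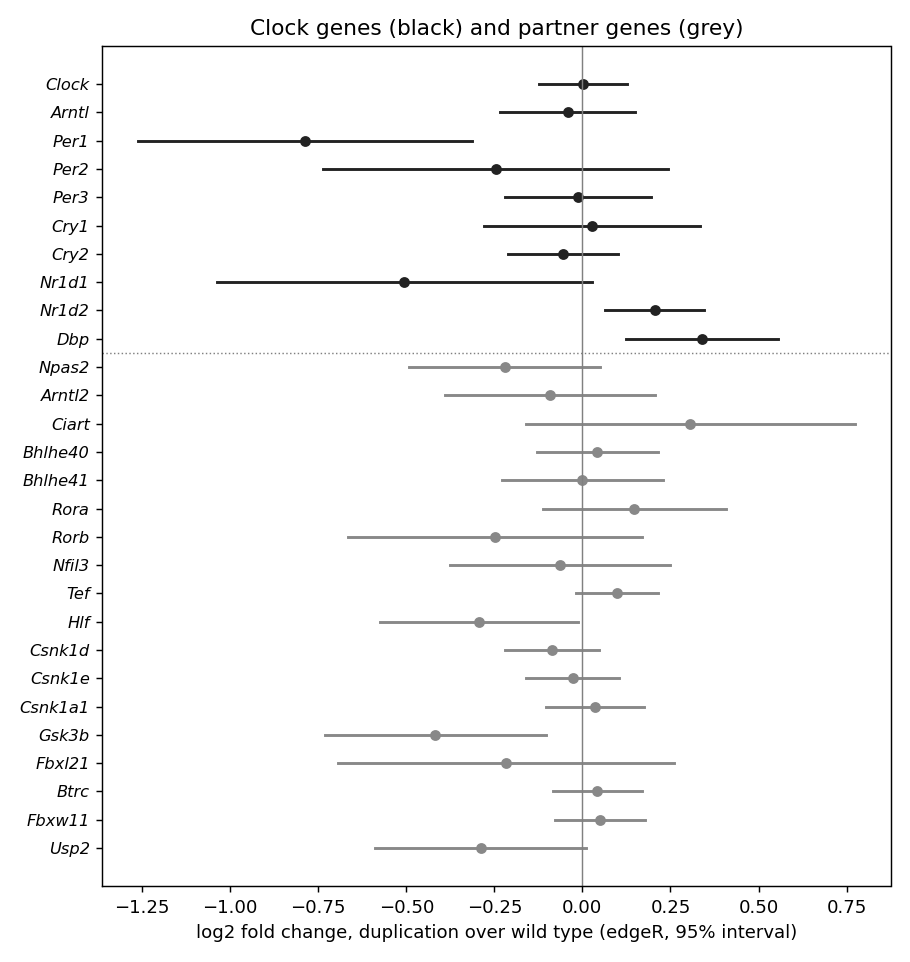
Log2 fold change of duplication over wild type with its 95% interval (edgeR) for the 10 clock genes in black and 18 tested partner genes in grey. The black intervals of Per1 (below 0) and of Dbp and Nr1d2 (above 0) leave out 0, and none of the genes passed the threshold over all tested genes.

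On a summary of evening against morning clock genes, the 6 libraries did not separate by genotype. The mean log2 CPM of 6 genes that peak from midday to early night (Nr1d1, Dbp, Per1, Per2, Per3 and Nr1d2) minus that of Arntl and Clock was used as a measure of position in the cycle and centred over the libraries. For wild type replicates 1 to 3 it came to 0.30, -0.25 and 0.15, and for duplication replicates 1 to 3 to -0.11, -0.13 and 0.03. The wild type values bracketed all duplication values, with means of 0.07 ± 0.28 and -0.07 ± 0.09 (SD, n = 3 per group), a difference of -0.13. Without Per1 the difference was -0.01, and with Dbp minus Arntl alone it was 0.38, of the opposite sign. The spread of this measure came from the 6 evening genes, which ranged from -0.17 to 0.26, and little from Arntl and Clock, which ranged from -0.04 to 0.08. Without wild type replicate 2 the difference was -0.29, and without wild type replicate 1 it was -0.02. The measure does not give a phase, since rising and falling times can share a value and amplitude enters it too. Per1 and Dbp, whose fold changes had opposite signs, offset each other in its mean. A difference in phase between the groups was therefore not tested.

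Ratios within a library, in which scaling cancels, restate the fold changes of Per1 and Dbp. The ratio of Per1 to Dbp counts within a library was 1.09, 0.62 and 1.02 in wild type and 0.341, 0.436 and 0.492 in duplication libraries, without overlap. The ratio of Dbp to Arntl counts was 0.711, 0.561 and 0.600 in wild type and 0.917, 0.700 and 0.816 in duplication libraries, where wild type replicate 1 fell within the duplication range. The ratio of Per1 to Arntl counts was 0.775, 0.348 and 0.613 in wild type and 0.313, 0.305 and 0.402 in duplication libraries, where wild type replicate 2 did so. In wild type replicate 2 Per1 and Dbp were both under their means over the libraries, at -0.14 and -0.17 on the centred log2 scale, as were the other 4 evening genes.

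A different pattern ran within the groups. In replicate 2 of both genotypes Arntl and Cry1 were at the highest and Nr1d1, Nr1d2 and Per3 at the lowest value of their group. Replicate 2 differed from the mean of the other 2 libraries of its group by 0.22 (wild type) and 0.17 (duplication) on the log2 scale for Arntl, by -0.90 and -0.16 for Nr1d1, by -0.27 and -0.12 for Per3, and by -0.01 and -0.14 for Nr1d2. Other members did not share the pattern: in replicate 2 Clock was the middle value of both groups. Per2 and Cry2 were lowest there in wild type and highest there in duplication mice. The median size of the replicate 2 difference over all tested genes was 0.16 in wild type and 0.09 in duplication libraries. Of all tested genes, 13.5% were highest and 10.6% lowest in replicate 2 of both groups, so membership in such a pattern is common. It was noticed after the values were seen, and no label states what the replicate numbers stand for.

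Per1 and Nr1d1 varied among the wild type libraries along with transcripts of the annotation classes TEC (unspliced expressed sequence clusters) and sense intronic. On the log2 scale centred over the libraries, those transcripts were at 0.47, 0.00 and 0.53 in wild type and -0.44, -0.43 and -0.12 in duplication libraries. Per1 was at 0.82, -0.14 and 0.43 and then -0.53, -0.40 and -0.18 in the same order, and Nr1d1 at 0.79, -0.38 and 0.24 and then -0.17, -0.32 and -0.15. With this level added to the design (3 residual degrees of freedom), the log2 fold changes became 0.12 for Per1 and 0.41 for Nr1d1 (edgeR adjusted p = 1 for each), while those of Nr1d2 and Dbp were 0.22 and 0.27 (adjusted p = 1). In that model 8 members were positive and 2 negative, beside 4 and 6 without it. The TEC and sense intronic level was itself lower in every duplication library than in every wild type library. Of 292 such transcripts 280 had a negative log2 fold change and 12 a positive one. This model therefore cannot tell that level apart from genotype.

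**Figure D3:**
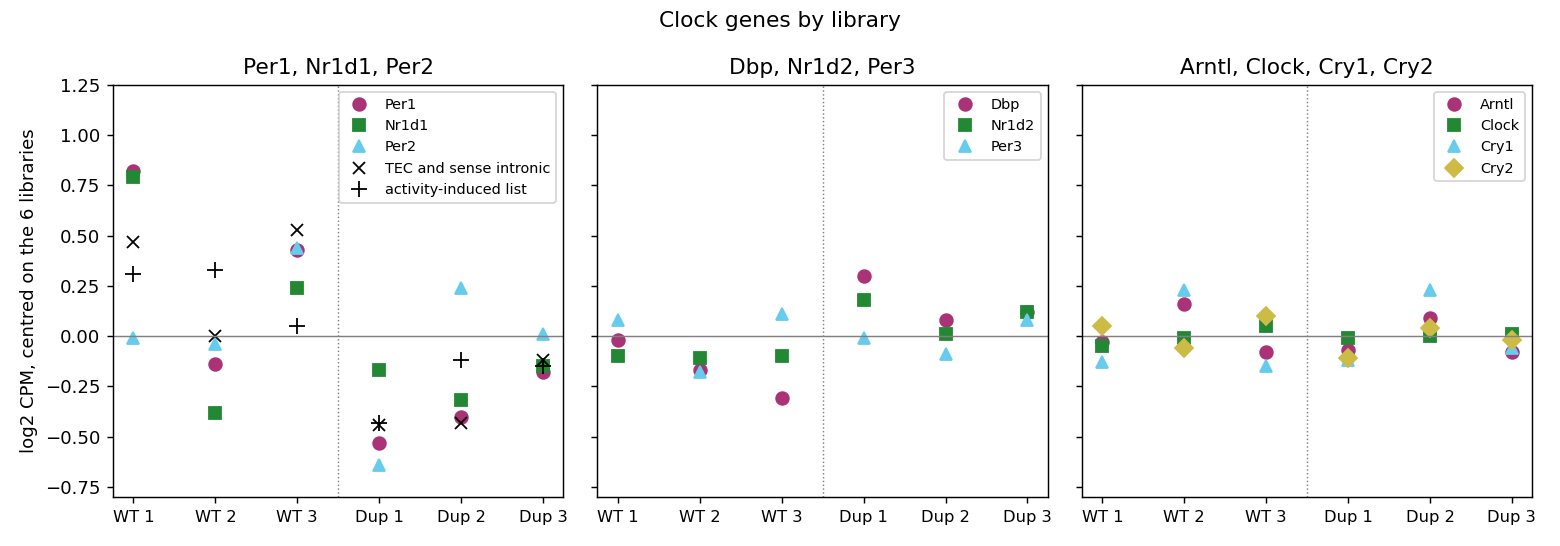
Log2 CPM of each clock gene centred on its mean over the 6 libraries, with wild type left and duplication right of the dotted line. The left panel adds the mean of TEC and sense intronic transcripts (crosses) and of 14 activity-induced genes (plus signs): Per1 is highest in WT 1 at 0.82 and lowest in Dup 1 at -0.53, while the middle panel shows Dbp highest in Dup 1 at 0.30.

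Per1 is also an activity-induced gene. A list of 14 such genes had a median log2 fold change of -0.48, with 14 of 14 negative (7549 of 15398 over all tested genes), 0 called, 8 lower at an unadjusted p under 0.05 in edgeR (background 12.2%), and a summed level of 420 to 490 CPM in wild type and 306 to 358 CPM in duplication libraries. By library the list was at 0.31, 0.33 and 0.05 in wild type and -0.43, -0.12 and -0.15 in duplication mice, and its members were split over wild type replicate 2, the lowest wild type library for Per1: 6 of the 14 were highest there, among them Fos at 25.3, 34.6 and 21.0 CPM in wild type replicates 1 to 3, and 4 were lowest there, among them Egr1 at 101.8, 65.4 and 118.8 CPM. Per1 is a glucocorticoid target as well. Of 13 tested glucocorticoid-responsive genes, 4 were positive and 9 negative, 0 had an unadjusted p under 0.05 in edgeR, and their summed level was 353 to 360 CPM in wild type and 338 to 347 CPM in duplication libraries. Of 9 temperature-responsive genes, such as the cold-inducible Cirbp and the heat shock genes, whose RNA follows the daily cycle of body temperature, 0 were called and the median was 0.09. Of these, 6 were positive and 3 negative, 0 higher and 1 lower at an unadjusted p under 0.05 in edgeR (backgrounds 7.05% and 12.2%). The groups did not overlap for 0 higher and 2 lower (backgrounds 11.7% and 10.5%). The list pools cold-inducible with heat-inducible genes, so its median cannot show a difference in temperature.

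Partner genes of the loop lay on both sides of 0. Of 20, 19 were tested, 9 positive and 10 negative, with 0 called in edgeR, 0 higher (background 7.05%) and 2 lower (background 12.2%) at an unadjusted p under 0.05, and a median log2 fold change of -0.03. Among those with the smallest p were Gsk3b, Hlf, Usp2, Tef and Npas2. Gsk3b, a kinase that phosphorylates several clock proteins, was at 295.5, 199.1 and 286.5 CPM in wild type and 177.6, 195.2 and 212.1 CPM in duplication libraries (log2 fold change -0.42 ± 0.14, adjusted p = 0.182). Here wild type replicate 2 lay inside the duplication range. Hlf, a PAR bZIP factor related to Dbp, was at 121.8, 82.0 and 107.8 CPM and then 82.5, 85.0 and 86.6 CPM, with wild type replicate 2 below all duplication libraries (-0.29 ± 0.12). Without wild type replicate 2, 3 partners were called lower, Gsk3b, Hlf and Npas2. In that setting 1676 of all 15712 tested genes were called lower, so such calls were common.

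The third PAR bZIP gene, Tef, was the most abundant of the 3 and lay on the other side: 342.8, 355.7 and 341.4 CPM in wild type and 373.5, 369.9 and 370.0 CPM in duplication libraries. Its groups did not overlap, and the log2 fold change was 0.10 ± 0.05 (edgeR unadjusted p = 0.0912). Usp2, a deubiquitinase under clock control, was at 46.0, 33.2 and 33.5 CPM in wild type and 33.1, 27.5 and 31.2 CPM in duplication libraries, a log2 fold change of -0.29 ± 0.13. Its groups did not overlap, but only narrowly, with wild type replicate 2 at 33.19 CPM and duplication replicate 1 at 33.13 CPM. Of the 19 tested partners, 2 were higher and 2 lower without overlap (backgrounds 11.7% and 10.5%).

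Per length of annotated exon, Nr1d2 was the most abundant member in wild type cortex at 23.6 ± 0.077 CPM per kb (SD, n = 3). Cry2 followed at 16.5 ± 0.93, Clock at 15.0 ± 0.52, Dbp at 11.0 ± 1.1, Nr1d1 at 10.6 ± 4.2, Arntl at 7.01 ± 0.63, Per1 at 5.32 ± 1.7, Cry1 at 4.75 ± 0.74, Per2 at 3.94 ± 0.78 and Per3 at 3.89 ± 0.42 CPM per kb. From Dbp down, the mean ± SD ranges of neighbours in this order overlapped, so that part of the order is not resolved, while Nr1d2, Cry2 and Clock were each apart. In the duplication libraries Nr1d2 again led, at 27.2 ± 1.6, and Per1 came last at 3.08 ± 0.38 CPM per kb, with a range that overlapped that of Per2 at 3.35 ± 0.99.

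The genes most like Per1 across the 6 libraries were Bcl9l, a coactivator of Wnt signalling, Coro2b, a coronin, and Kmt2b, a histone methyltransferase, by the root mean square difference of centred log2 CPM (0.056, 0.078 and 0.083). Kmt2b, for example, was at 26.9, 13.4 and 21.8 CPM in wild type and 11.7, 11.6 and 15.3 CPM in duplication libraries. Nearest to Dbp were 9330179D12Rik, the glycosyltransferase gene Gcnt2 and the synapse differentiation gene Syndig1 (0.042, 0.043 and 0.043). Syndig1 was at 41.6, 36.1 and 32.6 CPM and then 52.2, 44.5 and 42.4 CPM. None of these 6 genes is a clock gene on the lists used here.

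**Figure D4:**
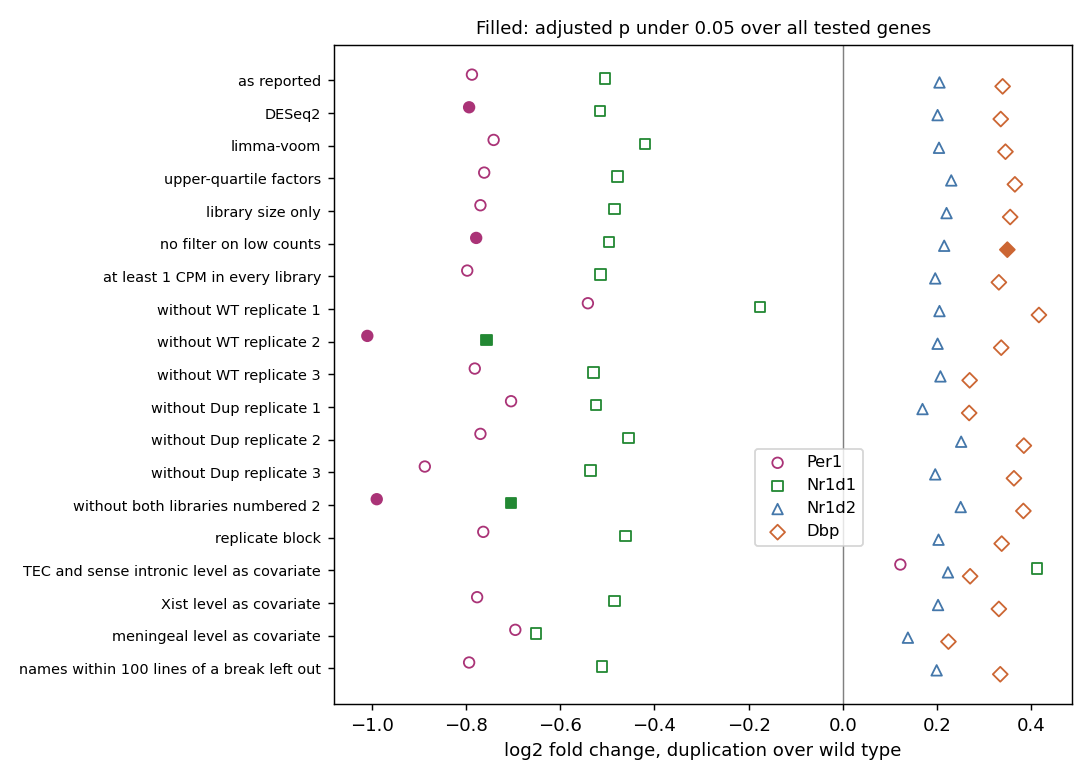
Log2 fold change of Per1, Nr1d1, Nr1d2 and Dbp as reported and in 18 alternative settings with names shifted, filled where the adjusted p over all tested genes was under 0.05. Per1 is negative in 17 of 18 and Nr1d1 in 17 of 18, both turning positive with the TEC and sense intronic level as a covariate, and Nr1d2 and Dbp are positive in 18 of 18.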

How the data were processed

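RNA was sequenced from prefrontal cortex in 6 libraries, made with a stranded total RNA kit with ribosomal depletion, per the labels' protocols. The submitters' processing notes name cutadapt, TopHat2 and HTSeq and the build mm10, without versions. Annotation and strand handling of the counting: not given in the sources used here. What the authors deposited are raw, whole-number gene counts without normalization, as a joint table and as 1 table per library, and all 6 of the latter held the same values as the joint table.

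The joint table has 45807 lines and 45801 names, of which 25 are spreadsheet date numbers. Names were moved to the counts 0 to 6 lines further on, in 6 steps taken from an earlier examination of these data, and names within 25 lines of a step were left out. As a check, the shift with the best correlation between counts and the protein-coding class of names equalled this one in 83 of 85 windows of 501 lines and at all 10 members, which lie at least 1299 lines from a step. The other 2 windows gave a different best shift. Lines without a name held 0.909% to 0.954% of a library's counts and entered neither library sizes nor tests. Positions and exon lengths come from GENCODE M21 on mm10, which held 91.9% of names. Promoter sequences come from RefSeq, with 9 of 10 members matched, and motifs were chosen with the sequences in view.

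The group comparison used edgeR 4.0.16 under R 4.3.3 (TMM factors, filterByExpr, quasi-likelihood F-test, Benjamini-Hochberg adjustment over 15398 genes). The procedure was run on simulated counts with the same dispersion for every gene, and libraries that differed only in depth and in planted fold changes. Those counts lack the variation shared by many genes that these libraries show, so that run does not speak to it. CPM was computed on TMM-scaled totals, and log2 CPM with a prior count of 2. DESeq2 1.42.0, limma-voom (limma 3.58.1), other factors, filters, left-out libraries, a replicate block and covariates were alternatives. All 10 members are named, with the 6 partners of smallest p, of which 1 is not reported here, and the 3 genes nearest in pattern to Per1 and to Dbp. Other genes named are examples of their lists. Members and lists were chosen with earlier results of these data known. Reads carry no molecular identifiers, so depth speaks to counting error only.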

Additional observations from a re-analysis of the deposited data

How the results depend on the processing

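The directions of Dbp and Nr1d2 held in all alternatives with shifted names, and those of the other 8 clock genes turned in at least 1 of them. Calls over all tested genes, 0 higher and 0 lower as reported, numbered 46 and 239 with DESeq2, 173 and 843 without a filter on low counts, 730 and 1676 with wild type replicate 2 dropped, 230 and 1090 with both libraries numbered 2 dropped, and 6 and 1 with the replicate block. Leaving out 1 library gave 0 to 730 higher and 0 to 1676 lower calls, 0 to 2 clock genes and 0 to 3 partners called lower. Clock genes called lower, 0 as reported, numbered 1 with DESeq2, 1 without a filter and 2 without both libraries numbered 2, and 1 was called higher without a filter. Partners called lower numbered 1 without a filter and 3 without both libraries numbered 2. The median of the clock genes, -0.03, turned to 0.15 with the TEC and sense intronic level, 0.027 with the meningeal level and 0.039 with names as deposited. The evening minus morning difference, -0.13, was -0.43 with names as deposited, where several members carry another gene's counts, and 0.38 for Dbp minus Arntl.

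With the TEC and sense intronic level as a covariate the sign also turned for Per1 (0.12), Per2 (0.18), Per3 (0.33), Cry1 (-0.38), Cry2 (0.09) and Nr1d1 (0.41), and with the meningeal level for Per2 (0.11), Arntl (0.056) and Clock (-0.001). Both of these levels separated the genotypes without overlap, so neither fit can tell its covariate apart from genotype. Per3 turned positive with upper-quartile factors (0.014), with library size only (0.004) and, leaving out 1 library, took values of -0.10 to 0.043. Clock turned negative with DESeq2 (-0.002), the stricter filter (-0.007) and names within 100 lines of a step left out (-0.003), and took -0.02 to 0.028 with 1 library left out. In the same way Arntl took -0.098 to 0.032 and Cry1 -0.081 to 0.16. With names as deposited, Arntl was at 0.19 and Cry2 at 0.051. The cause was not tested. Deviations of libraries with the same number correlated at 0.10, 0.06 and 0.31, and 1 of these is under 0.1, so the number was not taken to pair the samples. Wild type replicate 2 correlated best with duplication replicate 1, at 0.16. The replicate block changed no call of a clock gene, with Per1 at -0.76.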
